A study of Mus musculus with 14 samples.

Results

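The Hsd3b genes encode 3-beta-hydroxysteroid dehydrogenases, and 7 of them, Hsd3b1 to Hsd3b7, were followed here in mouse liver. A probe was taken as a member's if the gene name or accession that the array files give for it leads to 1 of the 7 symbols, and each probe was kept apart because close relatives of this family can hybridise to the same probe. In this way 6 of the 7 genes had a probe, with 1 probe and 1 spot each, out of 15944 genes that could be matched to a probe on the array. No probe could be matched to Hsd3b3. The family was selected on its measured log2 differences between the diet groups, those of Hsd3b5 and Hsd3b4 above all, so these differences are a description. Intervals and counts of calls for the members say where they stand in the fit over all probes and are no independent test of them, in any of the 3 comparisons.

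The mice were male C57BL/6 animals aged 1 year, and every group ate a form of the AIN-93G diet without restriction. The resveratrol group (4 mice) received the high-calorie diet to which 0.04% of the polyphenol resveratrol had been added, the high-calorie group (5 mice) received AIN-93G changed so that fat gave 60% of calories, and the standard-diet group (5 mice) received AIN-93G as it is. Each two-colour array carried the RNA of 1 mouse liver in the Cy3 dye and RNA pooled from 5 livers of the standard diet, labelled with Cy5, and a value is the log2 ratio of mouse to pool after background correction and loess normalisation. The labels do not say whether the pooled livers came from the same standard-diet mice. The dyes were not swapped, so a dye effect of a probe cannot be told apart from a true distance to the pool, but it is shared by all arrays and drops out of differences between groups.

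Most enzymes of this family oxidise a steroid's 3-beta hydroxyl group and move a neighbouring double bond, a step that every active androgen, progestogen and corticoid passes through on its way from cholesterol. Mouse liver and kidney also hold members that run as reductases and are taken to inactivate steroids, and Hsd3b5 is a classical example of a liver gene that males express and females hardly do, under the pulsed release of growth hormone and the transcription factor STAT5. Hsd3b7 stands apart from the rest: it acts on hydroxylated cholesterol in the early steps of bile acid synthesis.

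The RefSeq tables of assembly GRCm38.p6 place 6 of the 7 genes in 1 cluster on chromosome 3, in the order Hsd3b4, Hsd3b5, Hsd3b2, Hsd3b3, Hsd3b6 and Hsd3b1, and Hsd3b7 on chromosome 7. All 7 symbols have a promoter window there, running from 250 bases before to 50 bases after the gene start. The windows of the 2 genes with the widest spread across diets, Hsd3b5 (chr3:98645485-98645784, minus strand) and Hsd3b4 (chr3:98510518-98510817, minus strand), are printed for comparison. Those of Gm4450 (chr3:98457077-98457376, minus strand) and, from outside the cluster, Hsd3b7 (chr7:127800359-127800658, plus strand) are printed with them. In the Hsd3b5 window capitals mark a run of 24 bases that also stands in the Hsd3b3 window and a run of 19 bases that also stands in the Hsd3b2 window. In the Hsd3b4 and Gm4450 windows capitals mark the bases at which these 2 differ, and in the Hsd3b7 window they mark a match to the STAT5 pattern.
Hsd3b5: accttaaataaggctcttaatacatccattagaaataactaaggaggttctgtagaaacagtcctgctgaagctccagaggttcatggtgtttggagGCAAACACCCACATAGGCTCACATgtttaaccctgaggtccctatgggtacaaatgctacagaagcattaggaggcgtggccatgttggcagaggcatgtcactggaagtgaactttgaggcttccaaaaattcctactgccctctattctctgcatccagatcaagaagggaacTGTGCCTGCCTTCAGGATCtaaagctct
Hsd3b4: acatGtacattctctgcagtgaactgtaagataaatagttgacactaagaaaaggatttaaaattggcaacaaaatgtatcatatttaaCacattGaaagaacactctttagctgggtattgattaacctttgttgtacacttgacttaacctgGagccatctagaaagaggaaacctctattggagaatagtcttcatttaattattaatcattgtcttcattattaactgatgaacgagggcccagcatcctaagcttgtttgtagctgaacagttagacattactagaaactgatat
Gm4450: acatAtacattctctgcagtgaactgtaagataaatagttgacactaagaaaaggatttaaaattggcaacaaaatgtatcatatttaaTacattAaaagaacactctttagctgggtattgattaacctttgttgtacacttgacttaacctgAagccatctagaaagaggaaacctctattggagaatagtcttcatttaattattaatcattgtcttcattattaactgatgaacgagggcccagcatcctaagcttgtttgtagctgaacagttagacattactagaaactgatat
Hsd3b7: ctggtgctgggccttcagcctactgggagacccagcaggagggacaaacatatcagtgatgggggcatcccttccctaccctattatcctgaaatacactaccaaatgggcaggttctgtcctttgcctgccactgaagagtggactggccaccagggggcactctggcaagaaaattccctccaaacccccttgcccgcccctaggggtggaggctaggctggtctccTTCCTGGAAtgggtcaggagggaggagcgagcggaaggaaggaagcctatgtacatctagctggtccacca

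The Hsd3b4 and Gm4450 windows had the same base at 296 of 300 positions, and whether the Hsd3b4 probe also detects Gm4450 RNA was not tested. After alignment the Hsd3b5 window was 76.3% identical to that of Hsd3b3 over the aligned bases, 69.0% to that of Hsd3b2 and 65.7% to that of Hsd3b4. Gaps, 98 bases for Hsd3b4 with Hsd3b5, were left out of these shares. The window of Hsd3b7, from outside the cluster, was 60.7% identical to that of Hsd3b5 and 65.6% to that of Hsd3b3. The value for Hsd3b4 with Hsd3b5 is thus no mark of nearness. The STAT5 pattern TTCNNNGAA, which reads the same on both strands, was found in the windows of Hsd3b1 and Hsd3b7, and in 8.29% of all 32817 promoter windows of that length. It was not among the letters of the Hsd3b5 or Hsd3b4 windows. The pattern TATAAA, searched on both strands, stood in 1 of the 2 start-site windows of Hsd3b4 and in 13.6% of all windows. Its matches for Hsd3b4 lay after the start site, at positions 27 and 29, in the window that is not printed. Neither the direct repeat of nuclear receptors with a 1-base spacer (0.0396% of all windows) nor the SF-1 pattern TCAAGGTCA (0.424%), both searched on both strands, occurred in a member's window.

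Hsd3b5 followed the diets more widely than any other member. Its log2 ratios were 0.93, 0.67, -0.48 and -1.36 in the 4 resveratrol mice, -2.66, -2.72, -2.53, -2.41 and -2.89 in the 5 high-calorie mice, and 1.46, 1.36, 2.04, 1.57 and 1.28 in the 5 standard-diet mice. The 3 groups did not overlap: every high-calorie mouse was below every resveratrol mouse, and every resveratrol mouse was below every standard-diet mouse. The group means were -0.06 ± 1.06 (SD, n = 4) in resveratrol mice, -2.64 ± 0.18 (SD, n = 5) in high-calorie mice and 1.54 ± 0.30 (SD, n = 5) in standard-diet mice.

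Hsd3b4, a relative that is best known from the kidney, showed the same order of groups over a narrower range. Its log2 ratios were 0.60, 0.25, -0.18 and -0.54 in resveratrol mice, -0.98, -1.12, -1.06, -1.32 and -1.13 in high-calorie mice, and 0.72, 0.93, 1.31, 0.82 and 0.71 in standard-diet mice. Again no 2 groups overlapped, and the 4 resveratrol mice stood in the same order as for Hsd3b5. The means were 0.03 ± 0.50 (SD, n = 4) in resveratrol mice, -1.12 ± 0.13 (SD, n = 5) in high-calorie mice and 0.90 ± 0.25 (SD, n = 5) in standard-diet mice.

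**Figure D1:**
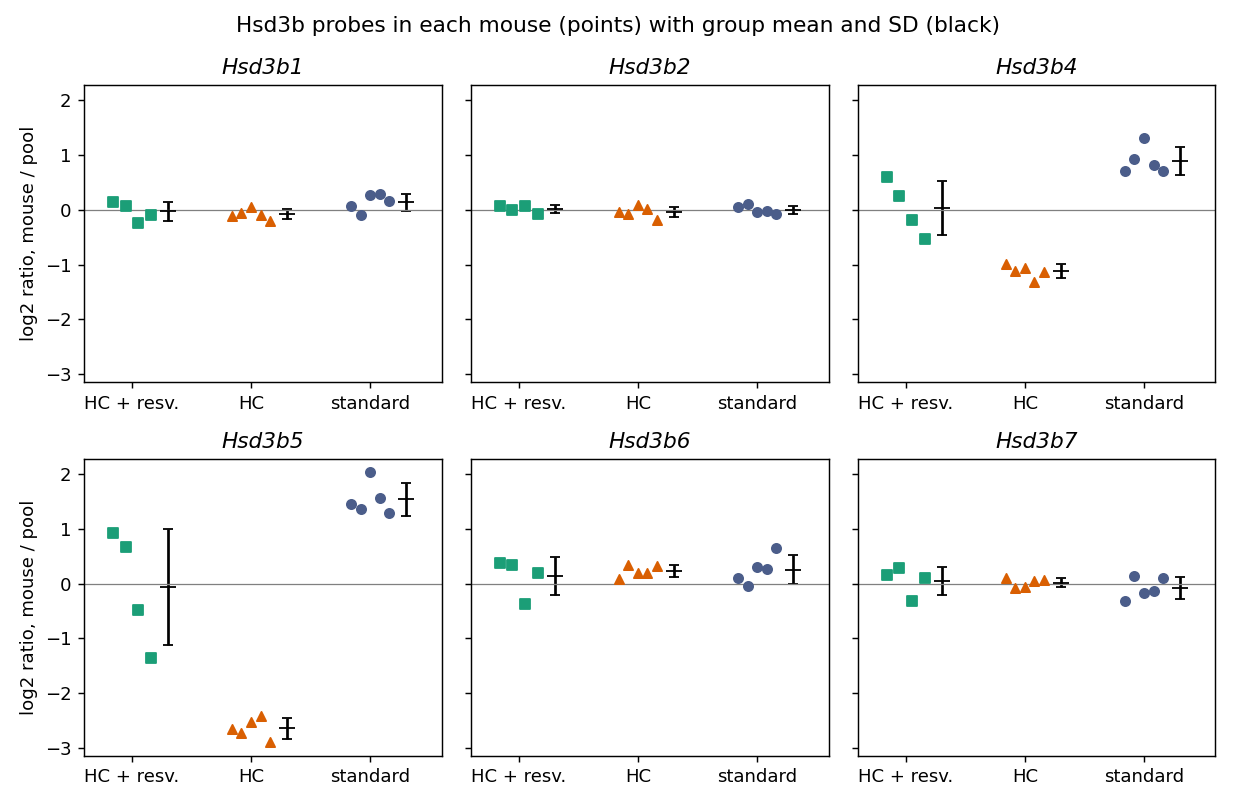
Log2 ratio of mouse to pool (y axis) for the 6 Hsd3b probes, with 1 point per mouse in the resveratrol (HC + resv.), high-calorie (HC) and standard-diet groups (x axis), and the group mean with its SD in black. The groups stand apart for Hsd3b5 and Hsd3b4, with high-calorie means of -2.64 and -1.12, and overlap for the other 4 probes.

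The other 4 members stayed close to the pool in all groups, though the spots of Hsd3b6 and Hsd3b2 were dim, as given below. Hsd3b1, the form of the adrenal gland and gonads, had log2 ratios of 0.15, 0.08, -0.24 and -0.09 in resveratrol mice, -0.10, -0.05, 0.05, -0.09 and -0.20 in high-calorie mice, and 0.07, -0.08, 0.27, 0.29 and 0.16 in standard-diet mice. Hsd3b2 ranged from -0.07 to 0.07 in resveratrol mice, from -0.17 to 0.08 in high-calorie mice and from -0.08 to 0.11 in standard-diet mice. Both sets of values overlapped across diets.
The probe for Hsd3b6, a form known from Leydig cells of the testis, is listed in the files under an accession-based name and was matched to the gene through its accession. It ranged from -0.38 to 0.38 in resveratrol mice, from 0.08 to 0.34 in high-calorie mice and from -0.05 to 0.66 in standard-diet mice. Hsd3b7, the bile acid enzyme, ranged from -0.32 to 0.28 in resveratrol mice, from -0.09 to 0.10 in high-calorie mice and from -0.32 to 0.15 in standard-diet mice. For both genes all 3 groups overlapped.

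The brightness of the spots shows what stands behind these ratios. The net Cy3 signal of Hsd3b5, the mean spot signal less its local background, was 730.2, 531, 234 and 141 intensity units in resveratrol mice, 41.8, 49.8, 44.8, 39.3 and 67.7 in high-calorie mice, and 730.5, 652, 1443, 717 and 1110 in standard-diet mice. The pool's Cy5 signal at the same spot lay between 702 and 1024 on all 14 arrays, and varied far less than the mouse channel. For Hsd3b4 the net Cy3 signal ran from 1176 to 2181 in resveratrol mice, from 342 to 1309 in high-calorie mice and from 1505 to 2932 in standard-diet mice, with a pool signal of 2145 to 4710. All 6 member probes were well above background in Cy3 on all 14 arrays, and no member spot was saturated. The high-calorie Hsd3b5 signals are about as large as the offset of 50 units added in the background correction, which draws low ratios towards 0. Hsd3b6 spots were dim in every group, with net Cy3 signals of 42.5 to 124 over the 14 arrays, and those of Hsd3b2 were 54.0 to 251. The offset can draw the ratios of such spots towards 0 too, so small differences of these 2 genes could be missed.

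**Figure D2:**
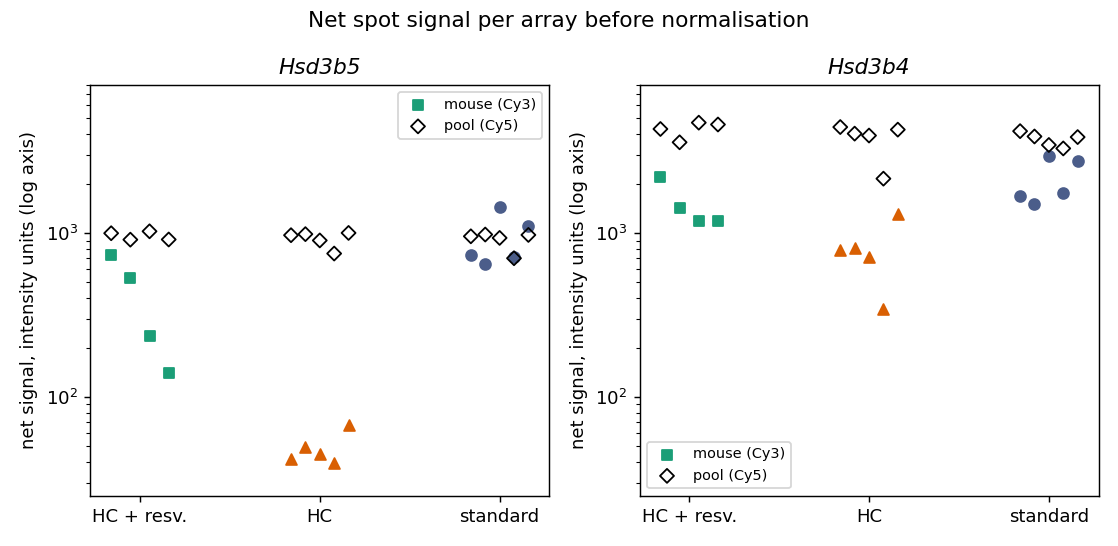
Net signal of the Hsd3b5 spot (left) and the Hsd3b4 spot (right) on a log axis before normalisation, with the mouse channel as filled points and the pool channel as open diamonds, for the resveratrol (HC + resv.), high-calorie (HC) and standard-diet arrays. The Hsd3b5 pool signal stays between 702 and 1024 units while the mouse signal of high-calorie arrays lies between 39.3 and 67.7 units.

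The first comparison asked how the liver of mice on the high-calorie diet differed from that of mice on the standard diet. The Hsd3b5 probe was lower in high-calorie than in standard-diet mice by 18.2-fold (95% interval 11.1 to 29.7), and the Hsd3b4 probe was lower by 4.05-fold (95% interval 3.13 to 5.25). On the log2 scale these differences were -4.19 ± 0.33 and -2.02 ± 0.17 (SE, n = 5 and 5). Of all 37136 probes tested, Hsd3b5 had the lowest value in this comparison. The difference for Hsd3b1 was -0.22 ± 0.08, with a 95% interval of -0.40 to -0.04, and those for Hsd3b2, Hsd3b6 and Hsd3b7 were -0.04, -0.03 and 0.09, with 95% intervals that all include 0.

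Hsd3b5 and Hsd3b4 were the 2 of 6 member probes with an adjusted p under 0.05 in the limma fit over all probes, against 9.04% of all probes, and both were lower. Probes called lower made up 3.73% of those tested and probes called higher 5.3%. The same 2 members had groups that did not overlap, against 10.1% of all probes. Nothing is read from these counts, since this comparison was among those the family was selected on. The median over the 6 members was -0.13, beside 0.00 over all probes.

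The size of the Hsd3b5 difference depended on how background was handled, and its direction did not. It was -2.24 with no background correction and -5.61 with the scanner's processed signals. Within arrays whose images were processed on the same day the Hsd3b5 difference was -4.22 on day 1 and -4.04 on day 2, and within the slide series that held both groups it was -4.26. For Hsd3b4 they lay between -2.10 and -1.92.

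The second comparison asked what went with adding resveratrol to the high-calorie diet. Hsd3b5 was higher in resveratrol than in high-calorie mice by 5.99-fold (95% interval 3.56 to 10.1), a log2 difference of 2.58 ± 0.35 (SE, n = 4 and 5), the highest value of all 37136 probes in this comparison. Hsd3b4 was higher by 2.23-fold (95% interval 1.69 to 2.93), a log2 difference of 1.16 ± 0.18. The other 4 members differed by 0.05 for Hsd3b1, 0.05 for Hsd3b2, -0.09 for Hsd3b6 and 0.04 for Hsd3b7, and the 95% interval of each included 0. Thus 2 of 6 members were called, both higher, where 4.91% of all probes were called, 2.77% higher and 2.14% lower. The same 2 members had groups that did not overlap, against 12.6% of all probes. As above, nothing is read from these counts.

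All 4 resveratrol arrays were processed on day 1, where the Hsd3b5 difference from high-calorie mice was 2.47 and the Hsd3b4 difference was 1.18. In slide series 1 they were 2.23 and 1.11. The high-calorie arrays of day 1 and of slide series 1 were the same, replicates 1 and 4, so these values are not separate checks. In slide series 2, which held a single resveratrol array, they were 3.38 and 1.35. There the high-calorie arrays were processed on day 2 and the resveratrol array on day 1, so diet and day cannot be told apart. Leaving out 1 array at a time gave 2.25 to 3.02 for Hsd3b5 and 0.97 to 1.35 for Hsd3b4. The number of member probes called was 1 with median centring in place of loess, where 140 of all 37136 probes were called. It was 0 within day 1, where 65 of all probes were called. It was also 0 within slide series 1, where 0 of all probes were called. No count of members called is given for slide series 2, with its single resveratrol array. Fewer arrays were compared within a day or a series.

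The third comparison set resveratrol mice against standard-diet mice. All standard-diet arrays were in slide series 2, which held a single resveratrol array, so diet and slide series can hardly be told apart here. With the slide series as a block the log2 differences were -1.41 for Hsd3b5 and -0.76 for Hsd3b4. In that fit 4 of all 37136 probes were called, against 68 without the block. The values that follow are without it. Hsd3b5 was lower in resveratrol than in standard-diet mice by 3.04-fold (95% interval 1.80 to 5.11), a log2 difference of -1.60 ± 0.35 (SE, n = 4 and 5), again the lowest of all 37136 probes. Hsd3b4 was lower by 1.82-fold (95% interval 1.38 to 2.39), a log2 difference of -0.86 ± 0.18. The remaining differences were -0.17 for Hsd3b1, 0.01 for Hsd3b2, -0.12 for Hsd3b6 and 0.13 for Hsd3b7, each with a 95% interval that included 0. None of the 6 members was called, where 0.183% of all probes were called, 0.105% higher and 0.0781% lower, and 3959 probes had an unadjusted p under 0.05.
The groups of Hsd3b5 and of Hsd3b4 did not overlap, against 2.98% of all probes, and nothing is read from these counts either. Without resveratrol replicate 1, both members had an adjusted p under 0.05 in the fit, with log2 differences of -1.93 and -1.05. In that fit 60 of all 37136 probes were called. Without resveratrol replicate 4, which had the lowest values of its group, they were -1.17 and -0.67. Within day 1 they were -1.75 and -0.92, and within slide series 2, with its single resveratrol array, -0.88 and -0.65. The 3 comparisons share arrays, so each comparison's values are given beside the others and no agreement between them is counted.

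**Figure D3:**
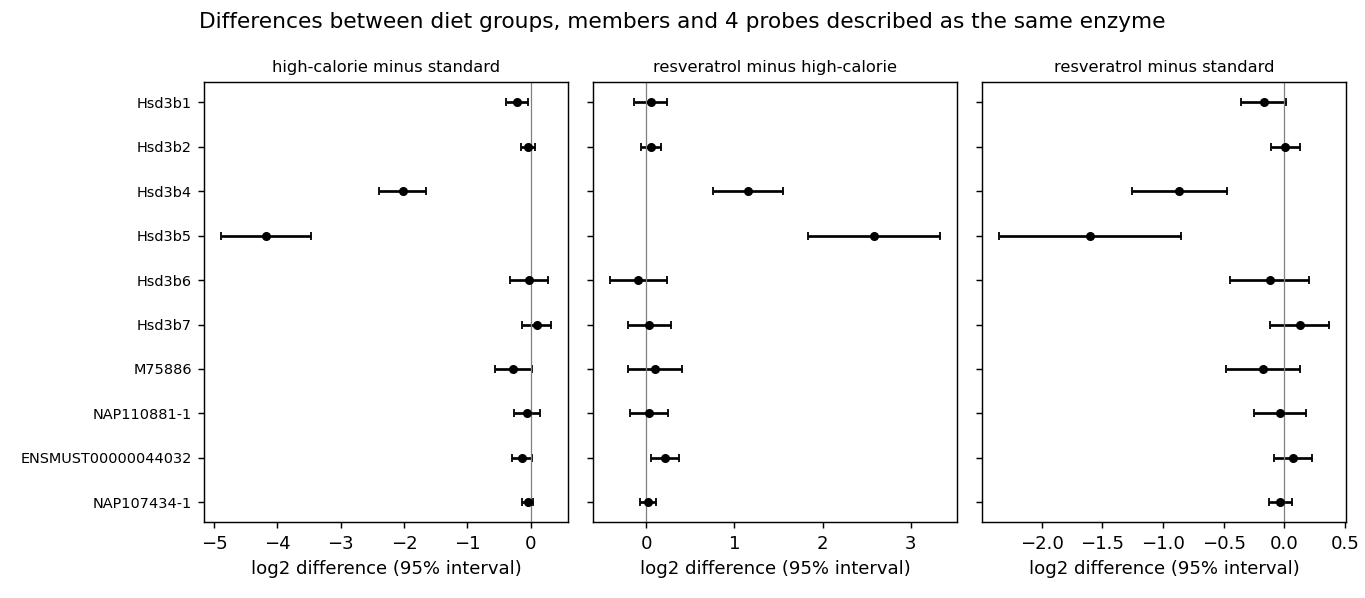
Log2 difference with its 95% interval (x axis) for the 6 members and 4 probes described as the same kind of enzyme (y axis), for high-calorie minus standard, resveratrol minus high-calorie and resveratrol minus standard (left to right, with their own scales). Hsd3b5 and Hsd3b4 lie away from 0 in all 3, and the intervals of most other probes include 0.

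Hsd3b5 and Hsd3b4 did not keep a fixed distance from each other. The log2 ratio of Hsd3b5 less that of Hsd3b4 was 0.33, 0.42, -0.30 and -0.82 in resveratrol mice, between -1.76 and -1.08 in high-calorie mice, and between 0.44 and 0.74 in standard-diet mice. Its mean was -0.09 ± 0.58 in resveratrol mice (SD, n = 4), -1.52 ± 0.27 in high-calorie mice (SD, n = 5) and 0.65 ± 0.14 in standard-diet mice (SD, n = 5). High-calorie mice therefore had the lowest values of this difference and standard-diet mice the highest. Across the 14 arrays both probes correlated with r = 0.99, and within groups, as deviations from the group means, with r = 0.88, which is a description, as the arrays share a pool and a normalisation. The correlation with Hsd3b5 over the 14 arrays was 0.68 for Hsd3b1, 0.34 for Hsd3b2, 0.11 for Hsd3b6 and -0.13 for Hsd3b7.

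**Figure D4:**
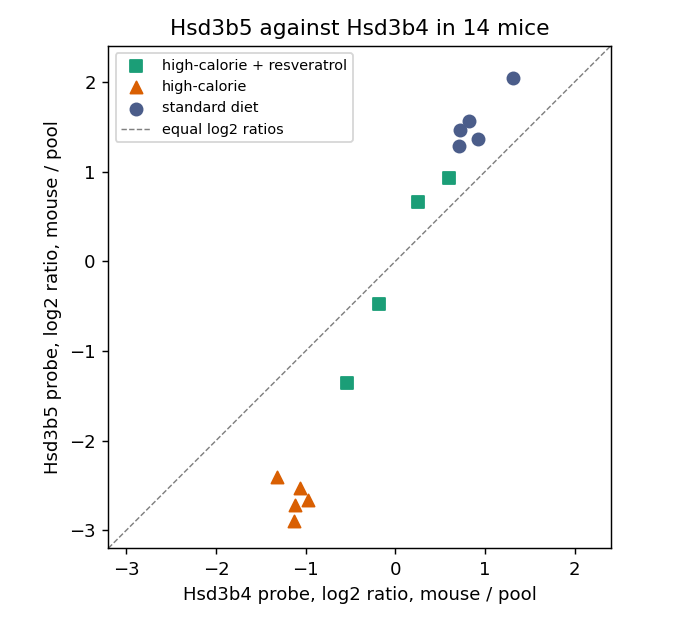
Log2 ratio of the Hsd3b5 probe (y axis) against that of the Hsd3b4 probe (x axis) in 14 mice, with resveratrol mice as squares, high-calorie mice as triangles and standard-diet mice as circles. High-calorie mice lie furthest below the dashed line of equal log2 ratios, with a mean difference of -1.52, and standard-diet mice lie above it, at 0.65.

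The spread among resveratrol mice was wide for these members. The SD of Hsd3b5 over the 4 resveratrol mice was 1.06, a value that 45 of the 37136 probes reached or passed, beside a median SD of 0.09 over all probes in that group. In high-calorie mice the SD of Hsd3b5 was 0.18 and in standard-diet mice 0.30. For Hsd3b4 the SD was 0.50 in resveratrol mice, reached or passed by 339 probes, against 0.13 in high-calorie mice and 0.25 in standard-diet mice. Resveratrol replicates 1 and 2 lay nearest to the standard-diet mice and replicate 4 nearest to the high-calorie mice for both members.

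A further 4 probes carry a description as a 3-beta-hydroxysteroid dehydrogenase but match none of the 7 symbols, and they were kept apart from the members. The probe ENSMUST00000044032, described as the type III enzyme, had log2 ratios of 0.33, 0.42, 0.08 and 0.09 in resveratrol mice, -0.01, -0.01, 0.02, 0.18 and -0.08 in high-calorie mice, and 0.19, 0.03, 0.28, 0.14 and 0.16 in standard-diet mice. Its resveratrol and high-calorie values overlapped, and the difference was 0.21 ± 0.07 (SE). M75886 differed by -0.28 ± 0.14 in high-calorie minus standard-diet mice, with groups that overlapped. For NAP110881-1 and NAP107434-1 the difference farthest from 0 was -0.06, for NAP110881-1 between high-calorie and standard-diet mice. None of the 4 was called in any comparison.

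Among genes outside the family, those whose brightest probe followed Hsd3b5 most closely over the 14 arrays were ranked among 15045 genes. Slco1a1, an organic anion transporter of male-biased liver expression, came first with r = 0.97, and its deviations from group means correlated with those of Hsd3b5 at r = 0.68. Its log2 ratios were 0.54, 0.60, -0.73 and -0.40 in resveratrol mice, -2.59, -1.80, -2.18, -2.38 and -2.37 in high-calorie mice, and 0.84, 0.70, 1.12, 0.96 and 1.21 in standard-diet mice. Both lower resveratrol values came from replicates 3 and 4, which were also the lower ones for Hsd3b5. The next were Ces3b, a carboxylesterase, at 0.95 (0.52 within groups), Epb41l4b at 0.93 (0.55) and Cd248, an endosialin gene, at 0.93 (0.79). Rpl37a, a ribosomal protein, Rack1, a ribosome-bound scaffold, Olfr341, named as an olfactory receptor, and Dmwd all had r = 0.92 with within-group values of 0.22, 0.21, 0.32 and 0.13. The high-calorie differences of these 7 genes after Slco1a1 from the standard diet ran from -0.94 for Ces3b through -0.45 for Epb41l4b and -0.37 for Olfr341 to -0.21 for Dmwd.

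**Figure D5:**
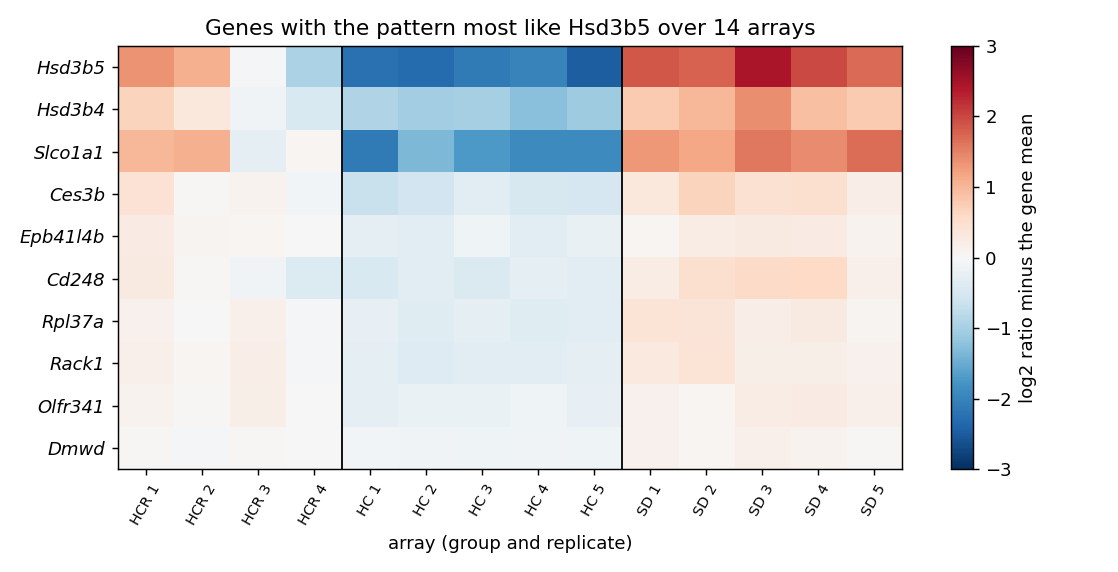
Log2 ratio less each gene's mean over all arrays (colour) for Hsd3b5, Hsd3b4 and the 8 genes most like Hsd3b5 (rows), on 14 arrays (columns) from resveratrol (HCR), high-calorie (HC) and standard-diet (SD) mice. Slco1a1, with r = 0.97, spans a wider range than the 7 genes below it, and Dmwd, with r = 0.92, spans little.

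Other genes of steroid metabolism moved in both directions, from a list that was drawn up with earlier results of these data known. Of 31 listed genes 26 were tested. Between high-calorie and standard-diet mice 6 rose, 2 fell and 18 did not pass (limma, adjusted p under 0.05). Hsd17b12, which also works in fatty acid elongation, rose by 0.46 ± 0.07 on the log2 scale (SE, adjusted p = 0.000921) and Hsd17b4, a peroxisomal oxidation enzyme, by 0.62 ± 0.10 (adjusted p = 0.00161). Rdh16, a retinol and steroid dehydrogenase, rose by 1.33 ± 0.27 (adjusted p = 0.00831), whereas Cyp7b1, the oxysterol hydroxylase, fell by 1.06 ± 0.19 (adjusted p = 0.00535). The median of the list was 0.09, beside 0.00 over all probes.
Between resveratrol and high-calorie mice 4 rose, 1 fell and 21 did not pass. Cyp7b1 rose by 1.21 ± 0.21 (adjusted p = 0.00852), Hsd17b7, which also serves cholesterol synthesis, by 0.73 ± 0.16 (adjusted p = 0.0196) and Hsd17b3, the testicular testosterone enzyme, by 0.24 ± 0.05 (adjusted p = 0.0156), and Rdh16 fell by 1.10 ± 0.28 (adjusted p = 0.0390). Between resveratrol and standard-diet mice 2 rose, none fell and 24 did not pass, and the 2 were Hsd17b7, by 1.34 ± 0.16 (adjusted p = 0.00349), and Nsdhl, a sterol dehydrogenase of cholesterol synthesis related to this family, by 0.83 ± 0.14 (adjusted p = 0.0360). These and the following list counts moved with several settings, as the closing section gives.

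For the bile acid pathway that Hsd3b7 belongs to, 17 of 17 listed genes were tested. Of these 4 rose, 1 fell and 12 did not pass in the high-calorie mice set against the standard diet. Between resveratrol and high-calorie mice 1 rose, and none passed between resveratrol and standard-diet mice. Cyp7b1 was both the gene that fell and the gene that rose with resveratrol, and it is counted in the steroid and male-biased lists too. Hsd17b4, among the 4 that rose, is also in the steroid list. In high-calorie mice Cyp8b1, the sterol hydroxylase that sets the cholic acid share, was higher by 0.83 ± 0.16 (adjusted p = 0.00594) and Acot8, a peroxisomal thioesterase, by 0.24 ± 0.06 (adjusted p = 0.0223). Hsd3b7 itself differed by 0.09 ± 0.11 there, with a 95% interval of -0.14 to 0.32.

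Hsd3b5 belongs to the genes that male liver expresses more than female liver. Like the other lists, those of male-biased and female-biased genes were drawn up with earlier results of these data known. Their counts are a description. Of 16 other male-biased genes tested, 13 fell, none rose and 3 did not pass between high-calorie and standard-diet mice, with a median of -1.07. Of all probes 3.73% were called lower there. Between resveratrol and high-calorie mice 7 rose, none fell and 9 did not pass, with a median of 0.90. Of all probes 2.77% were called higher there. Slco1a1 fell by 3.23 ± 0.23 (adjusted p = 9.01e-06) with the high-calorie diet and rose by 2.27 ± 0.24 (adjusted p = 0.000923) with resveratrol. C8b, a terminal complement gene, fell by 1.60 ± 0.21 with the high-calorie diet (adjusted p = 0.000478) and rose by 1.56 ± 0.22 with resveratrol (adjusted p = 0.00394).
Of 15 female-biased genes tested, 8 rose, none fell and 7 did not pass with the high-calorie diet. With resveratrol 4 fell, none rose and 11 did not pass. Of all probes 5.3% were called higher with the high-calorie diet and 2.14% lower with resveratrol. None of either list passed between resveratrol and standard-diet mice, where 6 of the 16 male-biased and 6 of the 15 female-biased genes had an unadjusted p under 0.05. Cyp2b9 rose by 3.25 ± 0.33 with the high-calorie diet (adjusted p = 0.000109) and fell by 2.44 ± 0.35 with resveratrol (adjusted p = 0.00412).

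Growth hormone signalling genes were counted the same way. Of 12 tested, 2 rose, 2 fell and 8 did not pass in the high-calorie mice set against the standard diet, and 1 rose between resveratrol and high-calorie mice. Stat5a, a STAT5 form, rose by 0.57 ± 0.11 (adjusted p = 0.00554), and Prlr, the prolactin receptor, rose by 0.60 ± 0.15 (adjusted p = 0.0251). Igf1, a growth hormone target, fell by 0.30 ± 0.06 (adjusted p = 0.00967), with the opposite sign, 0.12, under median centring, and rose by 0.33 ± 0.06 with resveratrol (adjusted p = 0.0151). Hnf4a, a liver nuclear receptor, fell by 0.15 ± 0.04 (adjusted p = 0.0428), but had a positive value under median centring (0.0023), in the deposited scores (0.05) and in Cy3 alone (0.12).

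Markers of the tissue were read beside these results. All 10 hepatocyte markers with a probe were well above background on all 14 arrays, and their summed net Cy3 signal ran from 166011 to 209210 in resveratrol mice, from 146950 to 237580 in high-calorie mice and from 102363 to 221862 in standard-diet mice. Alb, the albumin gene, was saturated in Cy3 on 11 of the 14 arrays, which caps these sums. The sums here and below are signals before normalisation, so they also carry the brightness of each array. The median net Cy3 signal was 65.9 to 100 units on resveratrol arrays, 57.7 to 114 on high-calorie arrays and 48.6 to 85.6 on standard-diet arrays. In liver RNA, fewer cells of a type and less RNA per cell cannot be told apart. Between high-calorie and standard-diet mice 3 of the 10 fell, none rose and 7 did not pass, with a median of -0.37. Among those that fell was Ahsg, by 0.74 ± 0.18 (adjusted p = 0.0209), whose pool spot was saturated on all 14 arrays. Between resveratrol and high-calorie mice 1 rose, none fell and 9 did not pass, with a median of 0.39. The 1 was Ahsg, by 0.71 ± 0.19 (adjusted p = 0.0449), with the opposite sign, -0.135, in Cy3 alone. The part of these markers in the Hsd3b results was not tested.
Hsd3b1 and Hsd3b6 are known from steroid-making glands, and all 7 markers of such glands with a probe were well above background on all 14 arrays. So were 77.9% to 92.4% of all spots on an array. The summed signal was 1577 to 3111 in resveratrol mice, 1780 to 3973 in high-calorie mice and 1178 to 2270 in standard-diet mice. Between high-calorie and standard-diet mice Mrap rose by 0.34 ± 0.09 (adjusted p = 0.0351) and Cyp11a1 fell by 0.13 ± 0.04 (adjusted p = 0.0481). The other 5 did not pass, and the median was -0.06. Between resveratrol and high-calorie mice Cyp11a1 rose by 0.16 ± 0.04 (adjusted p = 0.0441) and 6 did not pass. For the kidney, where Hsd3b4 is known from, 7 of 9 markers were well above background on all arrays, and the sum was 1221 to 2114 in resveratrol mice, 971 to 2443 in high-calorie mice and 941 to 1674 in standard-diet mice. None of the 8 kidney markers tested passed in any comparison, and 1, 3 and 1 of them had an unadjusted p under 0.05 in the 3 comparisons.
For 7 fat cell markers, all well above background on every array, the sum was 1276 to 1847 in resveratrol mice, 895 to 2186 in high-calorie mice and 789 to 1357 in standard-diet mice. For 7 Kupffer cell markers, also above background throughout, it was 1289 to 4229 in resveratrol mice, 1404 to 4143 in high-calorie mice and 979 to 2113 in standard-diet mice. For 7 stellate and endothelial markers, 5 of them above background on all arrays, it was 1046 to 1485 in resveratrol mice, 851 to 2061 in high-calorie mice and 741 to 1418 in standard-diet mice. Of the 7 fat cell markers 1 rose, 1 fell and 5 did not pass between high-calorie and standard-diet mice, with a median of -0.09. Cfd, the adipsin gene, rose by 2.52 ± 0.31 (adjusted p = 0.000338) and Retn, the resistin gene, fell by 0.20 ± 0.05 (adjusted p = 0.0261). Of 6 stellate and endothelial markers tested 4 rose, none fell and 2 did not pass in the same comparison, with a median of 0.23. They were Lrat, a retinol-storing enzyme of stellate cells, by 0.36 ± 0.05 (adjusted p = 0.00151), Pdgfrb by 0.31 ± 0.09 (adjusted p = 0.0424), and Col1a1 by 0.24 and Pecam1 by 0.22, which had the opposite sign in Cy3 alone (-0.0975 for Col1a1) or under median centring (-0.0338 for Pecam1). Between resveratrol and high-calorie mice Lrat fell by 0.34 ± 0.06 (adjusted p = 0.0085), Pdgfrb fell by 0.36 ± 0.09 (adjusted p = 0.0430) and the other 4 did not pass. Of 7 Kupffer cell markers none passed between high-calorie and standard-diet mice, where 3 had an unadjusted p under 0.05, and 1 rose between resveratrol and high-calorie mice. The part of these cells in the Hsd3b results was not tested.

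Over the whole series, 77.9% to 92.4% of spots were well above background in Cy3, and the median net Cy3 signal of an array ran from 48.6 to 114 units. The highest correlation of log2 ratios between 2 arrays was 0.89. What the same RNA measured again would give is not known, so this value cannot exclude a repeat. The labels call the animals replicates, and p-values measure the spread between these arrays. The number of arrays, 4 or 5 per group, limits the precision of every value.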

How the data were processed

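Liver RNA of 14 mice was measured on 14 two-colour arrays. Per the file headers, the deposited intensity values are spot and local background signals from Agilent Feature Extraction 7.5.1. The authors also deposited a table of scores that follow the log of processed Cy3 signals with a correlation of 0.983 to 0.985. How they were made is not stated in the headers or labels, so scale and centring stay unknown, and they served as an alternative. Of 43790 spots per array 2256 are controls, and 41174 distinct probes remain. Probes were matched to genes through RefSeq's table of assembly GRCm38.p6 (20859 matched, 20315 not). Sequences are RefSeq's.

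Signals were corrected with normexp (offset 50), and log2 ratios of mouse to pool were normalised by loess within arrays, with control spots at weight 0 and 576 outlier-flagged spots left out. A probe entered the fit if its Cy3 signal was well above background on 4 or more arrays (37136 probes). All groups were fitted together in limma 3.58.1 (R 4.3.3), with Benjamini-Hochberg adjustment over all probes and a threshold of 0.05. The fit was tested on simulated data. A listed gene is its brightest probe. Named were all members, the 8 genes most correlated with Hsd3b5, and per list up to 4 genes with the smallest adjusted p. The members and lists were chosen with earlier results of these data known. Deviations from group means of same-numbered mice in different groups had a mean correlation of 0.00 (13 pairs), so numbers were not used to pair the mice. So few pairs cannot exclude that some mice were paired. Image processing days and 2 series of slide numbers were taken as batches. Alternatives are given in the closing section.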

Additional observations from a re-analysis of the deposited data

How the results depend on the processing

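The Hsd3b5 and Hsd3b4 differences kept their sign under all alternatives run in each comparison. Of the recomputed member differences 543 moved by less than the spread between mice, 27 moved by more and none that was called changed sign. Part of the 543 could not move. Settings that change only which probes are tested, or normalise between arrays but keep the ratios, leave a difference as it is. So does leaving out an array of the group not compared, or the replicate number as a block for high-calorie minus standard. Hsd3b5 had the widest range. For high-calorie minus standard it was -2.24 with no background correction, -5.06 with an offset of 10, -5.61 with the scanner's processed signals and -2.60 in the deposited scores, whose scale is unknown. For resveratrol minus high-calorie the same settings gave 1.15, 3.34, 3.84 and 1.71, and slide series 2 gave 3.38. For resveratrol minus standard the scores gave -0.90 and slide series 2 gave -0.88. The high-calorie signal is near the offset, and the cause of these moves was not tested further.

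The count of members called for high-calorie minus standard was 2, and 2 to 3 over its alternatives (58 to 7331 of all probes called). For resveratrol minus high-calorie it was 2, against 1 with median centring (140 of all probes called), 0 within day 1 (65) and 0 within slide series 1 (0). Its count within slide series 2, with a single resveratrol array, is not given. For resveratrol minus standard it was 0, and leaving out 1 array gave 0 to 2 (20 to 239 of all probes called). With the replicate number as a block (replicate block) Hsd3b5 was -4.19, 2.52 and -1.67 in the 3 comparisons, and the counts over all probes were 3171, 437 and 51, against 3357, 1823 and 68 without it. The pairing check found 4 of 13 same-numbered pairs with a correlation over 0.1, and 9 of 52 pairs with other numbers. Median centring gave 2595 probes higher and 741 lower for high-calorie minus standard, against 1970 and 1387 with loess.

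The steroid metabolism count was less stable. For high-calorie minus standard it was 8, against 5 in the Cy3 channel alone, 2 in the scores, 4 with brightness as a covariate, 2 within day 1, 0 within day 2 and 5 within slide series 2, and 5 to 8 when 1 array was left out. For resveratrol minus high-calorie it was 5, against 3 with an offset of 10 and with processed signals, 0 with median centring, the Cy3 channel alone or the scores, 2 with the replicate block, 1 with the day as a block, 3 with the slide series as a block, and 0 within day 1 and either slide series, and 2 to 6 when 1 array was left out. For resveratrol minus standard it was 2, against 1 with no background correction, processed signals, median centring, the Cy3 channel alone, brightness as a covariate or within day 1, 0 in the scores, with the slide series as a block or within slide series 2, and 1 to 4 when 1 array was left out. Signs turned for Igf1 (0.121), Hnf4a (0.00231), Cyp11a1 (0.0907) and Pecam1 (-0.0338) with median centring, for Hnf4a (0.122) and Col1a1 (-0.0975) in the Cy3 channel alone and for Hnf4a (0.0505) in the scores, all for high-calorie minus standard, and for Ahsg (-0.135) in the Cy3 channel alone for resveratrol minus high-calorie. The cause was not tested. Of the values of listed genes under alternatives, 1910 kept sign and side of the threshold, 369 lost their call, 14 gained one and these 8 turned sign. These values include the alternatives named above that could not move a difference, and so could not turn a sign. Hnf4a also lost its call with an offset of 10. For high-calorie minus standard, over alternatives with all arrays, 7 to 14 male-biased genes fell (13 in the fit reported), 6 to 8 female-biased genes rose (8), 1 to 6 bile acid genes rose (4), and 1 to 3 growth hormone genes rose (2) and 0 to 2 fell (2). Within batches 2 to 10 male-biased genes fell and 3 to 8 female-biased genes rose. For resveratrol minus high-calorie 3 to 10 male-biased genes rose (7) and 1 to 4 female-biased genes fell (4), and within batches 0 to 4 rose and 0 to 1 fell. For resveratrol minus standard, over alternatives with all arrays, 0 to 3 female-biased genes rose (0) and 0 to 1 male-biased genes fell (0). Leaving out 1 array gave 0 to 4 female-biased genes higher, and 0 to 2 male-biased genes lower and 0 to 1 higher. Of the stellate and endothelial markers 1 to 4 rose for high-calorie minus standard (4), and within batches 0 to 1. Within slide series 1, 0 of all probes were called for resveratrol minus high-calorie, so every list count there is 0.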

Other observations

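The standard-diet mice differed from the pool of standard-diet livers at both leading members. The Hsd3b5 log2 ratio averaged 1.54 ± 0.30 (SD, n = 5) in standard-diet mice, a value that 36 of 37136 probes reached or passed, 27 of them with no saturated spot on these arrays, and all 5 mice lay more than 1 above the pool. Hsd3b4 averaged 0.90 ± 0.25 (SD, n = 5). Of all probes 52 (0.14%) had all 5 standard-diet mice more than 1 above the pool, and 46 had all 5 more than 1 below it. Without probes that had a saturated spot in either channel on these 5 arrays the counts were 43 and 43. Of 15 male-biased genes with no saturated spot 5 were above the pool in all 5 mice and 1 was below it in all 5. Of 15 female-biased genes 3 were above it in all 5 mice and 8 below it in all 5, among them Cyp2b9 at -1.96 ± 0.41 and Cyp4a14 at -2.14 ± 0.73. Without a dye swap, a dye effect and a difference between pool and mice cannot be told apart here.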
